A study of Homo sapiens with 16 samples.

Results

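The response of PC3 prostate cancer spheroids to a MED12 knockdown was read in 5 of the 16 libraries of the series. They were taken by their labels alone and comprised 3 libraries of cells given a nontargeting pool of small interfering RNAs (siCtrl replicates 1, 2 and 3) and 2 libraries of cells given a pool against MED12 (siMED12 replicates 1 and 3). Both groups received 25 pmol of pool with Lipofectamine RNAiMAX in RPMI-1640 medium with serum, grew for 3 days in flat culture and then for 4 days as spheroids, and differed in the pool alone. PC3 is an established androgen-insensitive line, so the knockdown describes 1 line under 1 siRNA pool. The labels do not say whether the replicates were separate cultures, so the p-values below measure the spread between these libraries. The other 11 libraries, 6 of LNCaP and 5 of 22Rv1 cells under the same 2 pools, shared the estimate of the spread.

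Mediator is a large protein complex that carries signals from enhancer-bound transcription factors to RNA polymerase II. MED12, with MED13 or its paralog MED13L, cyclin C (CCNC) and the kinase CDK8 or CDK19, forms a kinase module that binds the core of the complex reversibly, and MED12 activates that kinase. A small interfering RNA guides the cleavage of a matching messenger RNA, and a pool spreads the load over several sites of the same transcript. PC3 cells express mesenchymal and basal genes and are not known for the luminal, hormone-driven program of LNCaP cells.

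Of 10566 genes tested, 0 passed an adjusted p of 0.05 (0%). Among the 6668 genes that averaged 20 CPM or more, the 2 siMED12 libraries lay outside the siCtrl range on the same side in 21.1%. They lay outside on opposite sides in 11.2%. Libraries without a treatment effect would give similar shares by their order alone. Among genes above all siCtrl libraries in both siMED12 libraries, PRKDC, USP34 and SENP5 were prominent. SPAG7, BTBD1 and NTSR1 were prominent among those below. Replicate 1 had higher counts of many interferon-response genes and of long transcripts, and replicate 3 had higher counts of genes that are high in LNCaP cells. Pairing each siMED12 library with the siCtrl library of its number gave 20 lower genes in the fit of all libraries, all of which were highest in siCtrl replicate 1. In replicates 1 and 3 of PC3 alone the pairing called 62 of 8197 genes (0.756%). USP34 and PRKDC were among the higher and SPAG7 and NTSR1 among the lower. That fit has 1 residual degree of freedom per gene.

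Total counts were 792512, 954472 and 709106 in siCtrl replicates 1, 2 and 3 and 713704 in siMED12 replicate 1. The total of siMED12 replicate 3, 479118, was the lowest of the 16. Levels are given in CPM, counts scaled to a common library size by TMM. A count of 3 was worth 3.14 to 6.26 CPM across the 5 libraries, so genes under about 20 CPM rested on few counts. At 20 to 50 CPM the median standard error of a log2 fold change was 0.33, and at 100 to 500 CPM it was 0.18. Summed levels of 28 PC3 markers lay at 8489 to 9770 CPM in the 5 libraries against 147 to 643 CPM in the other 11. The sum matched the label, and PLAU held the most counts of it, 1689 to 4630. Not all members did so: AKR1C1, AKR1C2, AKR1C3, IL1A and UCHL1 had 0 or 1 counts in each PC3 library. Of 15 markers of blood, vessel and stromal cells 8 were at 0 in all 5. Of the others, LYZ had 39 counts in siCtrl replicate 1 and 0 to 4 in the other 4, and COL1A1 had 29 to 76.

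Several PC3 libraries stood apart. Genes restricted to LNCaP cells came to 2.76% of their LNCaP level in siMED12 replicate 3 and to 0.371% to 0.684% in the other 4. Genes restricted to 22Rv1 cells came to 2.46% of their 22Rv1 level in siCtrl replicate 3 and to 0.343% to 0.953% in the other 4. A trend with transcript length marked siMED12 replicate 1. In 391 of the 484 genes with the widest control spread described below, siCtrl replicate 1 was the highest or the lowest control. Of 3 controls ordered at random, each would also be the highest or the lowest in most genes. The part of these differences in the results was not tested beyond the fits given with each.

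The targeted gene did not fall beyond the spread between replicates. MED12 (ENSG00000184634, GRCh38 chromosome X, 71118543 to 71144103) stood at 28.4, 8.41 and 18.8 CPM in siCtrl replicates 1, 2 and 3 and at 15.8 and 14.5 CPM in siMED12 replicates 1 and 3. Both siMED12 libraries lay inside the siCtrl range. These levels rested on 22, 8, 13, 12 and 7 counts. The log2 fold change was −0.22 with a standard error of 0.43 (edgeR quasi-likelihood test, Benjamini-Hochberg adjusted p = 0.987), and its 95% interval ran from −1.11 to 0.66, or from 0.465-fold to 1.58-fold. A 3′ tag count of a transcript this low cannot show how far the knockdown went, and in bulk RNA fewer cells with a transcript and fewer copies per cell cannot be told apart.

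Of the partners of MED12, the scaffold subunit MED13 was above all siCtrl libraries in both siMED12 libraries, at 30.3 and 20.7 CPM against 14.2, 11.6 and 20.2 CPM. The second of these values exceeded the highest siCtrl library by less than the worth of 1 count. MED13L moved apart in the 2 libraries, to 27.7 and 10.4 CPM, from siCtrl levels of 15.5, 19.97 and 18.8 CPM. The kinase CDK8 stood at 27.1, 22.1 and 15.9 CPM in siCtrl and at 14.5 and 20.7 CPM in siMED12. Its paralog CDK19 was near the floor in all 5 libraries, at 1.05 to 7.91 CPM. Cyclin C (CCNC) held the highest counts of the module, at 111, 148 and 142 CPM against 131 and 129 CPM. The log2 fold changes were 0.82 ± 0.39 (SE) for MED13, 0.19 ± 0.48 for MED13L, −0.36 ± 0.39 for CDK8, 1.09 ± 0.71 for CDK19 and −0.05 ± 0.19 for CCNC, and none of these passed the test (edgeR adjusted p from 0.974 to 1).

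In the core of Mediator, 10 of 23 tested subunits had a positive and 13 a negative log2 fold change. MED1, the subunit bound by nuclear receptors, was at 7.74, 6.31 and 13 CPM in siCtrl and at 39.6 and 18.7 CPM in siMED12, outside the siCtrl range in both libraries. MED15, of the Mediator tail, was slightly above the siCtrl libraries in both, at 56.7 and 64.3 CPM against 46.2 to 49.0 CPM, and MED19 slightly below, at 51.4 and 45.6 CPM against 61.9 to 73.7 CPM. MYC, the transcription factor, stood at 377, 472 and 447 CPM in siCtrl and at 356 and 419 CPM in siMED12. Its log2 fold change was −0.17 ± 0.16 (edgeR adjusted p = 0.978), and of 43 tested MYC targets 28 were negative, with a median of −0.04, the value of all tested genes. CAD, the enzyme that starts pyrimidine synthesis, was above all siCtrl libraries in both (75.2 and 66.4 against 36.1 to 65.2 CPM). The ribosome assembly factor WDR74 was below them (85.7 and 87.1 against 90.4 to 119 CPM).

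In the comparison of both siMED12 libraries with all 3 siCtrl libraries, 527 genes had an unadjusted p under 0.05, which is 4.99% of those tested. Of these 278 were higher (2.63%) and 249 lower (2.36%), and the smallest adjusted p was 0.42, for PRKDC. DESeq2 also called 0 genes, with 192 under an unadjusted 0.05. limma on the deposited log2 CPM called 1, the phosphatase subunit PPP3CA. PPP3CA was at 3.87, 4.21 and 2.89 CPM in siCtrl and at 14.5 and 18.7 CPM in siMED12, on 2 to 11 counts, and at a mean of 266 CPM in LNCaP siCtrl spheroids.

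Over the 6668 genes that averaged 20 CPM or more, both siMED12 libraries lay above all siCtrl libraries in 524 (7.86%) and below all of them in 885 (13.3%). In 744 genes (11.2%) the 2 libraries lay outside on opposite sides, which exceeds the number higher in both. Replicate 1 alone was outside in 524 genes above (7.86%) and 874 below (13.1%), and replicate 3 alone in 535 above (8.02%) and 723 below (10.8%). Neither was outside in 1859 genes (27.9%). On the same side together were 1409 genes (21.1%), and 2191 of all tested genes (20.7%). Libraries without a treatment effect, ordered at random, would give similar shares, so these counts do not by themselves show a response. Being outside the range says nothing of size: the 3 siCtrl libraries spanned a median of 0.41 on the log2 scale, and in 484 genes they spanned over 1, of which siCtrl replicate 1 was the highest in 259 and the lowest in 132.

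The siMED12 libraries were no farther from the siCtrl libraries than these were from each other. Over 1881 genes of at least 100 CPM in libraries thinned to 479118 counts, the SD of the log2 difference was 0.276 to 0.399 between siCtrl libraries. It was 0.236 to 0.343 between a siCtrl and a siMED12 library and 0.266 between the siMED12 libraries. The greatest of the 10 distances was that between siCtrl replicates 1 and 2, and the smallest that between siCtrl replicate 3 and siMED12 replicate 3.

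The paired differences, siMED12 replicate 1 minus siCtrl replicate 1 and siMED12 replicate 3 minus siCtrl replicate 3, share no library. Across the 6668 genes their Pearson r was 0.10 and their Spearman rho 0.087, and the sign was the same in 3644 genes (54.6%), 2188 lower and 1456 higher. Genes are not independent replicates, and all share the depth of their library. Past 1 on the log2 scale in either direction were 209 of the 6668 genes in pair 1 and 156 in pair 3. With opposite signs, 1 gene was past it in both pairs. With the same sign in both pairs were 3 higher genes, USP34, the E3 ligase gene TRIM26 and the zinc finger gene ZNF473, and 7 lower ones. These 7 included AQP3, GPX2, PRSS35, BTBD1 and OLFM2. TRIM26 was as high in siCtrl replicate 2 (33.6 CPM) as in the siMED12 libraries (34.3 and 29.0 CPM), a library that the pairs leave out.

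**Figure D1:**
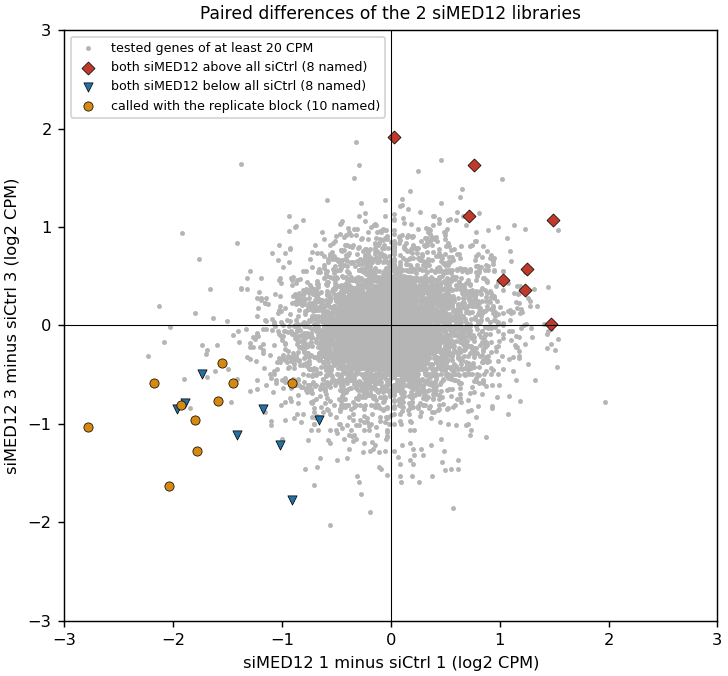
Paired log2 CPM difference of siMED12 replicate 3 (vertical axis) against that of siMED12 replicate 1 (horizontal axis), each from the siCtrl library of its number, for 6668 genes (grey) with the named consistent genes and those called with the replicate block in colour. The grey cloud is round, with r of 0.10, and the orange points lie at the lower left.

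The 8 largest increases among genes that averaged 20 CPM or more and were above all siCtrl libraries in both siMED12 libraries were led by USP34, a deubiquitinase. USP34 stood at 12.9, 16.8 and 14.5 CPM in siCtrl replicates 1, 2 and 3 and at 40.9 and 33.2 CPM in siMED12 replicates 1 and 3, with a log2 fold change of 1.33 ± 0.36. PRKDC, the catalytic subunit of the DNA-dependent protein kinase used in end joining of DNA breaks, stood at 47.7, 38.9 and 56.4 CPM against 117 and 85.0 CPM. Its log2 fold change was 1.14 ± 0.24 (95% interval 0.651 to 1.62, edgeR adjusted p = 0.42). In USP34 the gap between the groups was wider than the spread within either, and in PRKDC the siMED12 libraries differed from each other by more than the gap in CPM.

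SENP5, a protease that removes SUMO, was at 14.2, 7.36 and 18.8 CPM against 36.9 and 24.9 CPM. OIP5-AS1, a long noncoding RNA, was at 24.5, 17.9 and 11.6 CPM against 43.5 and 41.5 CPM, so that its siMED12 libraries nearly coincided. ARFGEF3, of the family of exchange factors for ARF GTPases, was at 20.6, 10.5 and 13 CPM against 35.6 and 31.1 CPM. In these 3 genes the lower siMED12 library was still clear of the highest siCtrl library.

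The remaining 3 were clear of the controls in a single library. AKAP9, a scaffold of protein kinase A at the Golgi and centrosome, was at 28.4, 10.5 and 10.1 CPM against 29.0 and 45.6 CPM, and replicate 1 scarcely exceeded siCtrl replicate 1. The collagen IV chain COL4A5 was at 20.6, 13.7 and 15.9 CPM against 44.8 and 22.8 CPM. RAD54L2, a helicase-like protein of the SNF2 family, was at 15.5, 16.8 and 24.6 CPM against 47.5 and 24.9 CPM. The 8 log2 fold changes ran from 1.03 to 1.33 with adjusted p from 0.42 to 0.891 (edgeR).

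Among genes below all siCtrl libraries in both, SPAG7 had the largest decrease at that minimum of 20 CPM, from 46.4, 39.95 and 44.8 CPM in siCtrl to 10.6 and 24.9 CPM in siMED12, a log2 fold change of −1.41 ± 0.36. BTBD1, a BTB-domain protein, was at 34.8, 36.8 and 27.5 CPM against 15.8 and 10.4 CPM. ARL16, a small GTPase, was at 34.8, 48.4 and 34.7 CPM against 21.1 and 16.6 CPM. In these 3 genes the siCtrl libraries were close together, and both siMED12 libraries stood well below them. None passed the threshold (edgeR adjusted p from 0.825 to 0.833).

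NTSR1, the receptor of the peptide neurotensin, stood at 98.0, 45.2 and 50.6 CPM in siCtrl and at 27.7 and 35.3 CPM in siMED12 (log2 fold change −1.05 ± 0.33). OLFM2, a secreted olfactomedin, was at 60.6, 29.4 and 39.0 CPM against 21.1 and 16.6 CPM. HSPA2, an HSP70 chaperone, was at 54.2, 18.9 and 24.6 CPM against 11.9 and 12.4 CPM. In all 3 of these, siCtrl replicate 1 was much the highest library and siCtrl replicate 2 the lowest control. LMAN2L, a lectin of the early secretory pathway, was at 27.1, 14.7 and 41.9 CPM against 13.2 and 10.4 CPM, and siCtrl replicate 2 lay near the siMED12 libraries. IFT27, a GTPase of cilium transport, was at 27.1, 28.4 and 43.4 CPM against 10.6 and 22.8 CPM. Adjusted p for these 5 genes ran from 0.833 to 0.891 (edgeR).

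**Figure D2:**
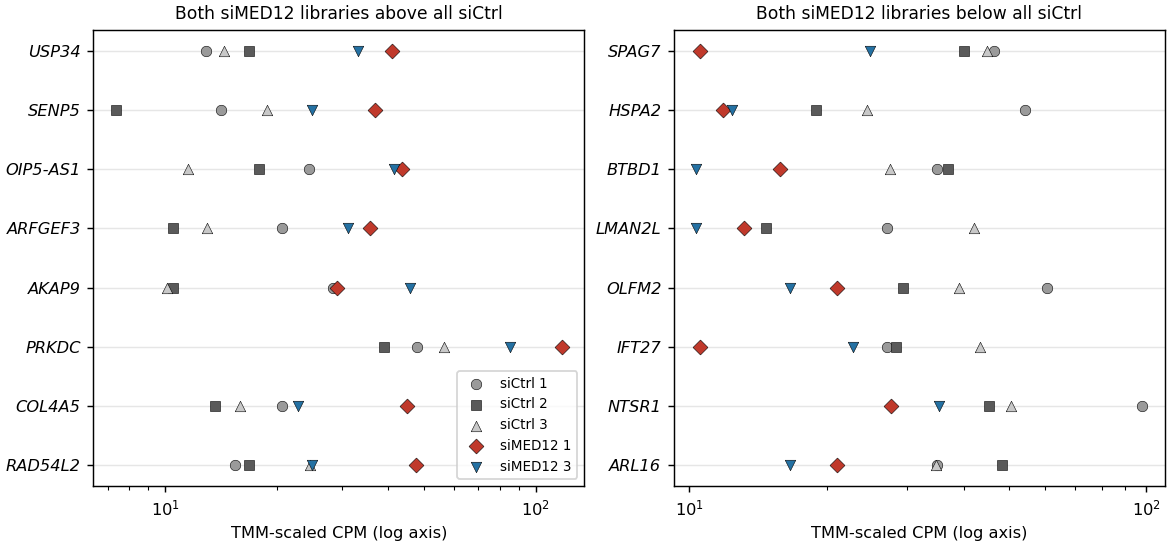
TMM-scaled CPM (log axis) in each of the 5 PC3 libraries for the 8 named genes above (left) and the 8 below (right) all siCtrl libraries in both siMED12 libraries, with 1 point for each library. In USP34, PRKDC and OIP5-AS1 both siMED12 points lie clear to the right of the controls, and in SPAG7, BTBD1 and ARL16 clear to the left.

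Transcript length differed between the 2 classes. The 524 genes higher in both libraries had a median canonical transcript of 4196 bases and the 885 lower in both one of 2182 bases. Genes outside the range in replicate 3 alone ran in the other order, with medians of 2522 bases above the controls and 3017 below them. Replicate 1, which enters both classes, carried a trend toward long transcripts on its own. The Spearman rho of its difference from the siCtrl mean with length was 0.361 across the 6668 genes, against −0.145 to 0.098 in the siCtrl libraries, which are part of their own reference, and 0.003 in replicate 3. In the shortest of 5 equal bins of genes (68 to 1470 bases) the median difference of replicate 1 was −0.17 on the log2 scale and in the longest (4891 to 34626 bases) it was 0.18. The same medians in replicate 3 were −0.005 and 0.002. With the length trend of each library removed, an alternative added after seeing the data, the log2 fold change was 1.08 for USP34, 0.85 for PRKDC, 1.27 for OIP5-AS1 and −1.32 for SPAG7.

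**Figure D3:**
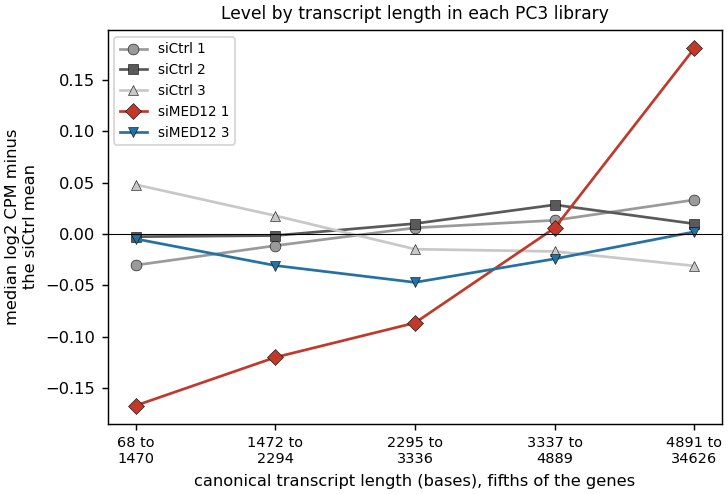
Median log2 CPM minus the siCtrl mean (vertical axis) in 5 equal bins of 6668 genes by canonical transcript length in bases (horizontal axis), with 1 line for each PC3 library. siMED12 replicate 1 climbs from −0.17 to 0.18, and the other 4 lines stay near 0.

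Of the interferon-response genes, many were higher in siMED12 replicate 1, and 4 of 25 tested (16%, against 8.8% of all genes) were above all siCtrl libraries in both. Type I interferon raises the transcription of genes whose promoters carry the interferon-stimulated response element. OAS3, which makes the messenger that activates RNase L, stood at 32.3, 28.4 and 18.8 CPM in siCtrl, at 81.8 CPM in replicate 1 and at 22.8 CPM in replicate 3. ISG15, a ubiquitin-like modifier, stood at 307, 223 and 241 CPM in siCtrl, at 504 CPM in replicate 1 and at 185 CPM in replicate 3. MX1, an antiviral GTPase, was at 55.5, 9.46 and 13 CPM in siCtrl, at 98.9 CPM in replicate 1 and at 6.22 CPM in replicate 3. In these 3 genes replicate 1 exceeded every siCtrl library, whereas replicate 3 was within or below their range.

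The response element letters were looked up in RefSeq promoters, from 250 bases before to 50 after each start, because the members moved together in replicate 1. The search was for GAAA, any 2 bases and GAAA on either strand, and matches may overlap. Of the 25 tested members of the list, 20 had a promoter in the table and 12 of these held the letters (60%), against 3.57% of all 35116 promoters and 2.49% of those of tested genes. Of the 10 matched members with an unadjusted p under 0.05 and a higher level in replicate 1, 6 held them, the same 60%, so the letters did not set these apart from the rest of the list. Shown are upstream windows of ISG15 (GRCh38.p14, chr1:1013381-1013408), OAS3 (chr12:112938322-112938349), IFIT1 (chr10:89392498-89392525) and PARP14 (chr3:122680801-122680828), each read along the strand of its gene, with the matched letters in capitals. In IFIT1 the match is on the opposite strand. ISG15 and IFIT1 hold a further match that overlaps or adjoins the one shown.
ISG15: cgggaaaggGAAACCGAAActgaagcca
OAS3: gaaagaaacGAAACTGAAAgcagggaat
IFIT1: tagctttagTTTCACTTTCccctttcgg
PARP14: ccaggaaacGAAAGCGAAAgagtcaaag
The capitals begin 107, 143, 116 and 29 bases before the start of ISG15, OAS3, IFIT1 and PARP14. A match describes the letters and shows no binding.

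Of the 25 tested members, 12 had an unadjusted p under 0.05 and were higher in replicate 1 alone, where 3.43% of all tested genes were, and 0 were lower, with 2.79% of all genes lower. In replicate 3 alone 0 were higher and 5 were lower, where 1.15% of all genes were higher and 1.95% lower. The median difference from the siCtrl mean was 0.53 in replicate 1 and −0.14 in replicate 3 on the log2 scale. In siCtrl replicate 1 it was 0.27, so that 1 control also ran high. IFIT1, an antiviral RNA-binding protein, was at 28.4, 12.6 and 14.5 CPM in siCtrl, at 43.5 CPM in replicate 1 and at 2.07 CPM, or 1 count, in replicate 3. PARP14 was at 6.45, 14.7 and 8.67 CPM in siCtrl, at 33.0 CPM in replicate 1 and at 10.4 CPM in replicate 3.

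Of these genes, ISG15 was called in the direct comparison of the 2 siMED12 libraries, where it was lower in replicate 3 by 1.45 on the log2 scale (edgeR adjusted p = 0.0386). That comparison and those of a lone library assume that it varies like the other groups. Against siCtrl, replicate 1 alone reached a log2 fold change of 1.60 for OAS3 and 0.97 for ISG15 (edgeR adjusted p = 0.0624 for both) and 1.96 for MX1 (adjusted p = 0.0789), and 0 genes were called (0%), with 657 under an unadjusted p of 0.05 (DESeq2 called 0). Members above all siCtrl libraries in both were PARP9, UBE2L6, B2M and HLA-B, and IFITM2 was below them in both. PARP9 stood at 25.8, 17.9 and 18.8 CPM against 50.1 and 29.0 CPM, and UBE2L6, the conjugating enzyme of ISG15, at 27.1, 31.5 and 33.2 CPM against 64.6 and 39.4 CPM. B2M, the light chain of class I antigen presentation, stood at 283, 289 and 308 CPM against 389 and 336 CPM.

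Other genes above the siCtrl range in replicate 1 alone included long transcripts, and the 524 genes of that class had a median of 4724 bases. LPP, a focal adhesion protein with a transcript of 18316 bases, was at 27.1, 21.0 and 14.5 CPM in siCtrl, at 50.1 CPM in replicate 1 and at 18.7 CPM in replicate 3. BTBD7 was at 24.5, 19.97 and 11.6 CPM against 48.8 and 20.7 CPM. PRRC2B was at 45.2, 26.3 and 17.3 CPM against 65.9 and 39.4 CPM. In BTBD7 and PRRC2B replicate 3 lay within the controls, as it did in LPP.

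The 874 genes below the range in replicate 1 alone had a median of 2052.5 bases. CYP2R1, a vitamin D hydroxylase, was below the siCtrl range in replicate 1 alone, at 5.28 CPM against 30.96, 21.0 and 26.01 CPM in siCtrl and 22.8 CPM in replicate 3. POLB, the polymerase of base excision repair, was at 19.8 CPM in replicate 1 and at 58.1 CPM in replicate 3, with siCtrl at 67.1, 39.95 and 54.9 CPM. C12orf57 was at 9.23 CPM in replicate 1 and at 24.9 CPM in replicate 3, with siCtrl at 21.9, 18.9 and 34.7 CPM. EML3, which binds microtubules, was at 10.6 and 27.0 CPM with siCtrl at 27.1, 21.0 and 33.2 CPM. For all 4 the value of replicate 3 lay within the controls.

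Genes that are high in LNCaP cells were higher in siMED12 replicate 3. KLK3, which encodes prostate-specific antigen, stood at 9.03, 13.7 and 18.8 CPM in siCtrl, at 6.59 CPM in replicate 1 and at 58.1 CPM in replicate 3, against a mean of 2473 CPM in LNCaP siCtrl spheroids. Its sister protease KLK2 was at 10.3, 13.7 and 8.67 CPM in siCtrl, at 3.96 CPM in replicate 1 and at 45.6 CPM in replicate 3. The synaptotagmin SYT4 was at 11.6, 10.5 and 13 CPM, at 2.64 CPM in replicate 1 and at 41.5 CPM in replicate 3. In each of these replicate 3 was several times the highest control and replicate 1 was below the lowest.

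The ion channel TRPM8 was at 0, 1.05 and 0 CPM in siCtrl, at 0 in replicate 1 and at 8.30 CPM in replicate 3, or 4 counts. The transporter SLC45A3 was within the controls, at 21.1 and 24.9 CPM against 11.6 to 27.5 CPM. A set of 74 genes stood at 200 CPM or more in LNCaP siCtrl spheroids and over 4 times the PC3 siCtrl level. Their LNCaP siCtrl mean was also above that of 22Rv1 siCtrl. Of these 74, 37 were above all PC3 siCtrl libraries in replicate 3 and 11 in replicate 1. Of all 10566 tested genes, 930 were above in both, 915 in replicate 3 alone and 960 in replicate 1 alone, leaving aside those on opposite sides. In the direct comparison of the siMED12 libraries KLK3 and SYT4 were called as higher in replicate 3, by 3.11 and 3.89 on the log2 scale (edgeR adjusted p = 0.0386 for both). These and ISG15 were the 3 calls (0.0284%). With the LNCaP share subtracted, 0 genes were called there. Whether counts of another line entered the library was not tested.

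**Figure D4:**
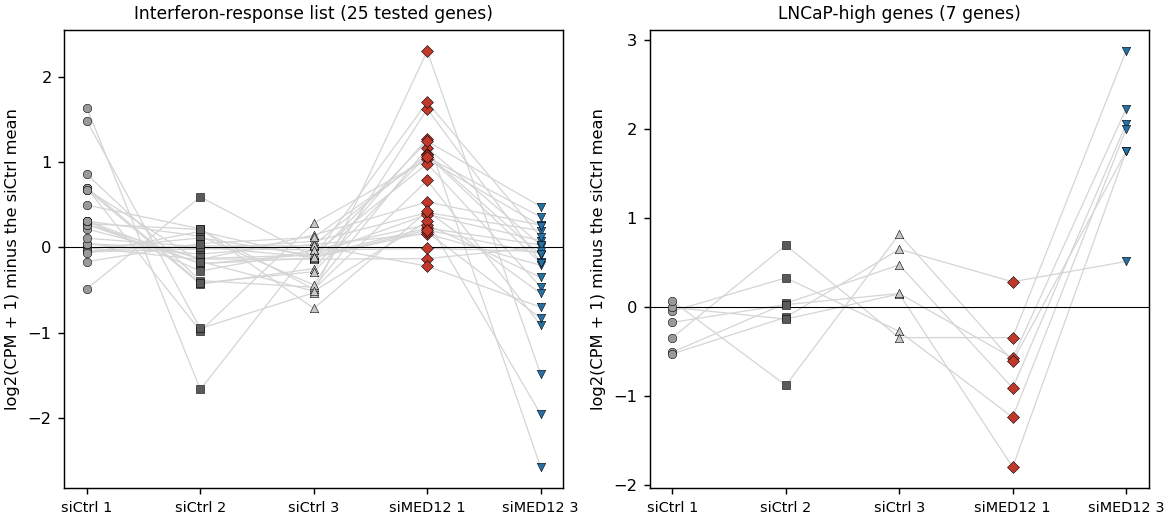
Difference of log2(CPM + 1) from the siCtrl mean (vertical axis) in each PC3 library (horizontal axis) for the 25 tested interferon-response genes (left) and for KLK3, KLK2, SLC45A3, TRPM8, SYT4, SPON2 and FOLH1 (right), with a grey line for each gene. Interferon genes peak in siMED12 replicate 1 and in part in siCtrl replicate 1, and LNCaP-high genes peak in siMED12 replicate 3.

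Genes not marked by LNCaP expression also left the siCtrl range in replicate 3 alone. CHMP6, of the membrane-cutting ESCRT-III complex, was at 16.8, 19.97 and 18.8 CPM in siCtrl, at 18.5 CPM in replicate 1 and at 41.5 CPM in replicate 3. RABAC1, a receptor of prenylated Rab proteins, was at 21.9, 14.7 and 18.8 CPM with 21.1 and 39.4 CPM. ANTXR1, an anthrax toxin receptor, was at 15.5, 32.6 and 20.2 CPM with 23.7 and 45.6 CPM. The zinc finger gene ZNF473 was at 10.3, 28.4 and 10.1 CPM with 23.7 and 33.2 CPM. The first 2 of these were set well apart from the other 4 libraries, and for ZNF473 siCtrl replicate 2 was near.

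JAK1, a kinase of interferon and cytokine receptors, was at 30.96, 33.6 and 28.9 CPM in siCtrl, at 33.0 CPM in replicate 1 and at 8.30 CPM in replicate 3. PRDM8 was at 42.6, 26.3 and 24.6 CPM in siCtrl with 25.1 and 6.22 CPM in siMED12. CDC23, a subunit of the anaphase-promoting complex, was at 39.99, 25.2 and 41.9 CPM with 26.4 and 8.30 CPM. RASSF8 was at 60.6, 28.4 and 53.5 CPM with 52.8 and 12.4 CPM. The values of replicate 3 rested on 3 to 6 counts, in the library of lowest depth. Replicate 3 alone against siCtrl gave 0 calls by edgeR (0%), with 327 genes under an unadjusted p of 0.05, and 2 by DESeq2.

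With a term for each replicate number the PC3 effect rested on replicates 1 and 3, and 20 of 10566 genes were called (0.189%), all of them lower. The 10 of smallest p were CALB1, AQP3, PLAT, MRPS6, PRSS35, GPX2, SERPINE2, HPCAL1, BCL6 and ENSG00000286966. CALB1, the calcium buffer calbindin, stood at 1014, 237 and 487 CPM in siCtrl replicates 1, 2 and 3 and at 336 and 284 CPM in siMED12. AQP3, a water and glycerol channel, stood at 188, 15.8 and 62.1 CPM against 25.1 and 29.0 CPM. PLAT, tissue plasminogen activator, stood at 563, 52.6 and 238 CPM against 123 and 158 CPM. For all 3 both siMED12 libraries were below their own number and above siCtrl replicate 2.

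The paired log2 fold changes were −1.24 ± 0.16 for CALB1 (edgeR adjusted p = 1.88e-05), −2.30 ± 0.30 for AQP3 (3.06e-05) and −1.51 for PLAT. Without the pairing the 20 genes had log2 fold changes of −1.69 to −0.37, and the smallest adjusted p among them was 0.857. The siCtrl libraries ran in the order 1, 3, 2 from high to low in 20 of the 20 genes, and in 18.1% of all tested genes. The ratio of siCtrl replicate 1 to replicate 2 was 1.78 to 28.8 with a median of 4.36. In 18 of the 20, siCtrl replicate 2 was at or below the higher siMED12 library. HPCAL1 and FAM117A were the 2 exceptions. HPCAL1, a neuronal calcium sensor, was at 685, 386 and 509 CPM against 364 and 338 CPM. FAM117A was at 85.1, 41.0 and 62.1 CPM against 29.0 and 35.3 CPM.

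The other members of the group include enzymes, secreted proteins and a repressor. GPX2, a glutathione peroxidase, was at 156, 24.2 and 83.8 CPM against 43.5 and 33.2 CPM. SERPINE2, an inhibitor of thrombin and plasminogen activators, was at 329, 93.6 and 139 CPM against 111 and 106 CPM. BCL6, a transcriptional repressor, was at 98.0, 8.41 and 27.5 CPM against 23.7 and 14.5 CPM. MRPS6, a protein of the small mitochondrial ribosomal subunit, was at 1064, 239.7 and 545 CPM against 388 and 363 CPM. PRSS35 was at 133, 10.5 and 50.6 CPM and the unnamed noncoding gene ENSG00000286966 at 121, 4.21 and 34.7 CPM, with siMED12 libraries between siCtrl replicates 2 and 3. NFKBIA, the inhibitor of NF-κB, which was also called, stood at 534, 104 and 234 CPM in siCtrl and at 202 and 207 CPM in siMED12. In the unpaired fit the decrease of the group leaned on siCtrl replicate 1. Without that library the unpaired log2 fold change was −0.43 for AQP3, −0.36 for GPX2, −0.34 for HPCAL1, −0.22 for PRSS35 and −0.19 for CALB1. It was −0.070 for SERPINE2, −0.035 for MRPS6 and −0.00084 for PLAT, and 0.27 for BCL6, 0.32 for NFKBIA and 0.61 for ENSG00000286966. The paired difference of siMED12 replicate 3 from siCtrl replicate 3 does not use that library. It ran from −1.63 for PRSS35 to −0.17 for NFKBIA in the group. The paired fit that chose the group used these differences, so they are no separate support. In siCtrl replicate 1 the summed level of the blood, vessel and stromal markers was 160.2 CPM, against 62.62 to 98.08 CPM in the other 4 PC3 libraries. The sum was mostly COL1A1 (76 counts) and LYZ (39 counts), and 8 of the 15 markers were at 0 in all PC3 libraries. It thus describes these 2 genes rather than a cell type, and the part of this in the calls was not tested.

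In replicates 1 and 3 of PC3 alone, 62 of 8197 genes were called with the pairing (0.756%), 9 higher and 53 lower, among them all 20 above. USP34 and PRKDC were among the higher ones, with paired log2 fold changes of 1.48 and 1.02 (edgeR adjusted p = 0.0388 and 0.005), as was the proteasome subunit PSMD12 at 1.00 (0.026). SPAG7, HSPA2, OLFM2 and NTSR1 were among the lower ones, at −1.43, −1.73, −1.37 and −1.27 (edgeR adjusted p from 0.00332 to 0.0232). The mitochondrial transcript MT-CO1 had a value of −0.55. This fit leaves out siCtrl replicate 2 and has 1 residual degree of freedom per gene, so its p-values lean on the spread shared across genes.

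**Figure D5:**
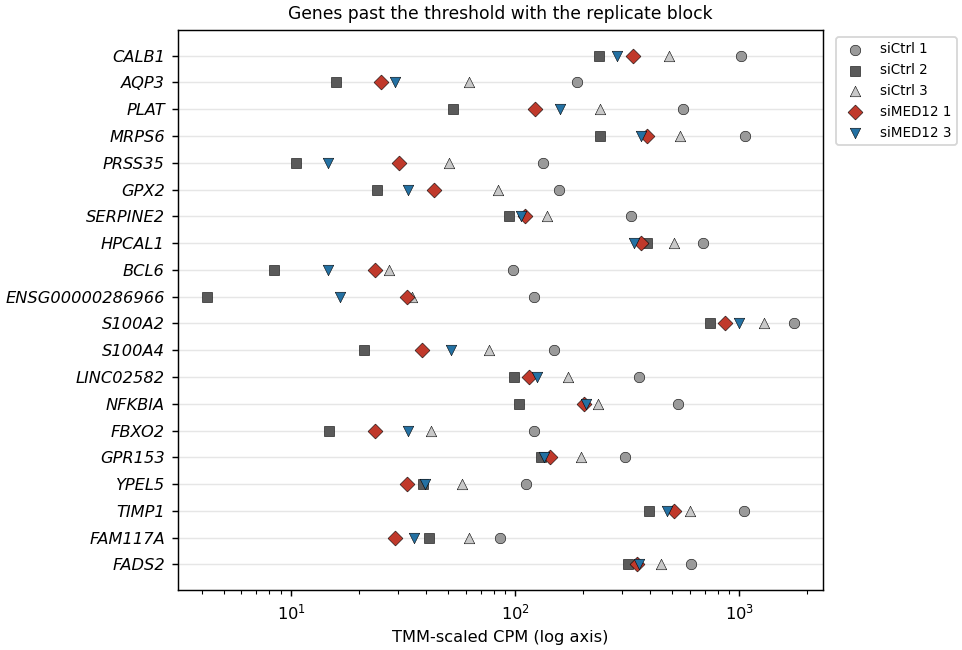
TMM-scaled CPM (log axis) in each PC3 library for the 20 genes called with the replicate block, ordered by p, with 1 point for each library. siCtrl replicate 1 is the highest point in every row, and siCtrl replicate 2 is at or below the higher siMED12 point in 18 of the 20.

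Of all tested genes 55.6% had a negative log2 fold change, with a median of −0.04, and groups of genes were read against that. Both siMED12 libraries were below all siCtrl libraries in 11.9% of tested genes and above them in 8.8%. The shares depended on level: of 3570 genes that averaged 50 CPM or more, 15.6% were below in both and 5.46% above. The groups were not matched for level, so a group of abundant genes can run lower for that reason alone. All group values here are descriptions, and 0 members of any group were called without the pairing (edgeR). The members named are among those of largest change.

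S100 proteins and annexins, which bind calcium and membranes, had a negative log2 fold change in 16 of 16 tested members, with a median of −0.18. Both libraries were below siCtrl in 6 of them (37.5%). ANXA4 stood at 37.4, 43.1 and 34.7 CPM against 25.1 and 27.0 CPM. S100A4 was at 149.6, 21.0 and 76.6 CPM against 38.3 and 51.8 CPM, and S100A2 at 1749, 736 and 1293 CPM against 863 and 999.6 CPM, with siCtrl replicate 2 as the lowest library of both.

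Glycolytic genes were negative in 17 of 21 tested members, with a median of −0.14, and 9 were below siCtrl in both libraries (42.9%). HK1, the hexokinase of most tissues, stood at 259, 208 and 215 CPM against 177 and 176 CPM (log2 fold change −0.36 ± 0.16, edgeR adjusted p = 0.974). The inducible hexokinase HK2 went the other way, at 24.5, 16.8 and 36.1 CPM against 38.3 and 35.3 CPM. The neuronal enolase ENO2 was at 58.1, 47.3 and 85.3 CPM against 34.3 and 56.0 CPM. The medians of the group were −0.18 in replicate 1 and −0.10 in replicate 3. Of 21 hypoxia genes outside glycolysis 16 were negative, with a median of −0.09, among them BNIP3, a mitophagy receptor, at 488, 355 and 386 CPM against 313 and 367 CPM.

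Nuclear genes of the respiratory chain were negative in 63 of 70 tested members, with a median of −0.13, and 18 were below siCtrl in both libraries (25.7%). UQCR11, of complex III, stood at 71.0, 56.8 and 54.9 CPM against 38.3 and 35.3 CPM, and NDUFA9, of complex I, at 37.4, 33.6 and 44.8 CPM against 23.7 and 24.9 CPM. NDUFA13 was at 34.8, 28.4 and 33.2 CPM against 26.4 and 14.5 CPM. Cytosolic ribosomal protein genes, whose counts can be shared with pseudogenes, were negative in 66 of 77, with a median of −0.11. RPL23 was at 107, 125 and 91.0 CPM against 84.4 and 87.1 CPM, and RPS29 ran opposite, at 107, 118 and 99.7 CPM against 125 and 149 CPM. Of the mitochondrially encoded genes 10 of 11 were negative over both libraries, but their median was −0.29 in replicate 1 and 0.087 in replicate 3. MT-CO1, of cytochrome c oxidase, was below siCtrl in both, at 6077, 3728 and 3747 CPM against 3097 and 3291 CPM.

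These groups have short transcripts, with median lengths of 783.5 bases for the respiratory chain, 869 for the ribosomal proteins and 1286.5 for S100 proteins and annexins, against 3041 for all tested genes. Their medians in replicate 1 were −0.17, −0.18 and −0.20, and in replicate 3 they were −0.06, −0.02 and −0.13. With the length trend removed the medians over both libraries were −0.04, −0.04 and −0.12, beside −0.01 for all genes.

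Proteasome subunits were negative in 24 of 29, with 10 below siCtrl in both libraries (34.5%), among them PSMA4 and PSMD1. PSMD1 stood at 102, 97.8 and 106 CPM against 83.1 and 78.8 CPM, and PSMA4 at 77.4, 76.8 and 101 CPM against 69.9 and 56.0 CPM. PSMD12, of the lid of the same particle, was above siCtrl in both, at 36.1, 52.6 and 43.4 CPM against 88.4 and 64.3 CPM (log2 fold change 0.81 ± 0.23, edgeR adjusted p = 0.825).

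Heat shock and chaperone genes were negative in 16 of 20, with a median of −0.04 in replicate 1 and −0.18 in replicate 3. The HSP70 genes HSPA1A and HSPA1B, which are near-identical copies whose reads can be split uncertainly, stood at 147, 171 and 123 CPM against 111 and 95.4 CPM and at 218, 249 and 168 CPM against 172 and 149 CPM. HSPH1 was at 285, 179.8 and 189 CPM against 194 and 133 CPM. Sterol and fatty acid genes were negative in 24 of 29, and their medians were −0.03 in replicate 1, −0.31 in replicate 3 and 0.31 in siCtrl replicate 1. NSDHL was below all controls in both libraries, at 50.3, 25.2 and 40.5 CPM against 21.1 and 20.7 CPM. LSS was at 64.5, 26.3 and 34.7 CPM against 31.7 and 16.6 CPM, and IDI1 at 46.4, 31.5 and 50.6 CPM against 23.7 and 33.2 CPM.

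Cell cycle genes were spread evenly. Of 31 S-phase genes 18 were positive, with a median of 0.04, and of 36 G2/M genes 19 were positive, with a median of 0.02. MKI67, the proliferation marker with a transcript of 12716 bases, stood at 33.5, 38.9 and 37.6 CPM against 58.0 and 43.6 CPM. The spindle factor TPX2 was above the controls in both, at 128, 154.5 and 104 CPM against 162 and 166 CPM. Among immediate early factors KLF6 stood at 45.2, 47.3 and 53.5 CPM against 65.9 and 70.5 CPM (log2 fold change 0.48 ± 0.23, edgeR adjusted p = 0.974). Of the other groups, endoplasmic reticulum folding had 11 positive of 20, ATF4 targets 9 of 21, TGF-β and YAP targets 11 of 20, integrin and matrix genes 14 of 29 and p53 targets 12 of 23. NF-κB targets had 8 positive of 17, keratins and junctions 13 of 36, NRF2 genes 6 of 24, metallothioneins and zinc genes 3 of 7 and Wnt targets 7 of 11. PC3 markers had 11 positive of 23 and luminal markers 14 of 21.

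The genes that siMED12 called in LNCaP and 22Rv1 spheroids, chosen in libraries that share none with PC3, were read in PC3. Of 39 genes lower in LNCaP, with a median of −1.06 there, 26 (66.7%) had a negative value in PC3, with a median of −0.11. Of all tested genes 55.6% were negative. At 20 CPM or more, 4 of 32 (12.5%) were below all controls in both PC3 libraries, against 13.3% of all genes. Of 5 genes higher in LNCaP 3 were positive in PC3. In the case of 22Rv1, 55 of 89 lower genes (61.8%) were negative in PC3, and 7 of 50 (14%) were below all controls, against that 13.3%. Of 105 genes higher in 22Rv1, 35 (33.3%) were positive in PC3, where 4622 of all 10566 tested genes were. Of these, 3 of 65 at 20 CPM or more (4.62%) were above all controls, against 7.86% of all genes. The 22Rv1 siMED12 replicate 3 library held genes restricted to PC3 at 4.95% of their PC3 level, against 0.626% to 0.780% in the other 4 22Rv1 libraries. With an unadjusted p under 0.05 in PC3, where 4.99% of all genes had one, there were 0 of the LNCaP genes in either direction by edgeR. Of the 22Rv1 genes, 1 higher gene moved the same way and 2 the opposite way at that p, and 4 lower genes the same way and 1 the opposite way.

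The difference between the PC3 and the LNCaP response passed the threshold for 3 genes (0.0284%), all more positive in PC3. The HSP40 chaperone DNAJB1 had log2 fold changes of −1.69 ± 0.17 in LNCaP and −0.07 ± 0.16 in PC3, where it stood at 462, 548 and 422 CPM in siCtrl and at 497 and 409 CPM in siMED12. IGFBP3, which binds insulin-like growth factors, had −1.67 ± 0.27 in LNCaP and 0.36 ± 0.26 in PC3, where it stood at 102, 146 and 106 CPM against 164 and 139 CPM. BHLHE40, a clock-related repressor, had −2.62 in LNCaP and −0.19 ± 0.35 in PC3, at 42.6, 65.2 and 30.3 CPM against 47.5 and 33.2 CPM. The differences were 1.62 ± 0.24 for DNAJB1, 2.03 ± 0.38 for IGFBP3 and 2.43 for BHLHE40 (edgeR adjusted p = 0.0011, 0.0392 and 0.0424). In glycolysis the median was −0.61 in LNCaP and −0.40 in 22Rv1, beside −0.14 in PC3, and these group medians were not compared by a test.

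The PC3 and 22Rv1 responses differed in 10 genes (0.0946%), 8 of them more negative in PC3. S100A10, the partner of annexin A2, had a log2 fold change of 1.03 ± 0.12 in 22Rv1 and −0.07 ± 0.12 in PC3, where it stood at 1632, 1627 and 1718 CPM against 1474 and 1680 CPM. C12orf75 had 1.00 ± 0.14 in 22Rv1 and −0.18 ± 0.13 in PC3. Both are high in PC3 cells, and the differences of −1.11 and −1.18 stayed called without the 22Rv1 siMED12 replicate 3 library, at −1.18 and −1.19. The matrix protein fibronectin (FN1) had −1.33 ± 0.21 in 22Rv1 and 0.40 ± 0.28 in PC3, where it stood at 58.1, 59.9 and 63.6 CPM against 92.3 and 62.2 CPM. PRKDC had −0.50 ± 0.25 in 22Rv1 beside 1.14 ± 0.24 in PC3. The differences were 1.73 ± 0.35 for FN1 and 1.64 ± 0.34 for PRKDC (edgeR adjusted p = 0.0339 and 0.0423). PRKDC was the 1 gene among the 16 consistent ones that was called in a difference between lines. It was named for its values in the same PC3 libraries, so this call is no separate support for its change. Without siMED12 replicate 1 its difference was 1.36.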

How the data were processed

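Spheroid RNA was sequenced as BRB-seq 3′ tags. The deposited counts per gene are raw counts that the authors made with STARsolo on GRCh38.p13 (Gencode 43); how molecular identifiers were collapsed is not given in the sources used here. The deposited log2 CPM values were recomputed from the counts with a largest difference of 5e-14. Genes were filtered by edgeR's default minimum count of 10 over 6 groups (10566 of 62703 kept), scaled by TMM and fitted over 16 libraries with edgeR 4.0.16 (R 4.3.3, quasi-likelihood test, Benjamini-Hochberg adjustment at 0.05). A second fit set the 2 PC3 siMED12 libraries apart. Log2 CPM used a prior count of 2. Alternatives used DESeq2 1.42.0 and limma 3.58.1. Coordinates and transcript lengths are from Gencode 44. The fit was tested on simulated data. Depth per library is given above, and floors cover counting error only. Members and gene lists were chosen with earlier results of these data known. Named genes were the kinase module and MYC, the 8 largest consistent changes in each direction, the 10 smallest p with the replicate block, the 4 largest one-library differences in each direction, up to 3 per list, 2 per sign in the line differences, and luminal markers. Some genes these rules name are not reported here. ISG15, IFIT1, PARP14, UBE2L6, B2M, HLA-B, IFITM2, MED1, PPP3CA, TRIM26, SYT4, SPON2, FOLH1, FAM117A, LYZ, COL1A1 and BHLHE40 were named after their values were seen.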

Additional observations from a re-analysis of the deposited data

Results flagged for a closer look

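The effects of siMED12 in 7 genes differed between lines by a test of the difference itself (edgeR, interaction contrast, Benjamini-Hochberg adjustment over 10566 genes). PC3 minus LNCaP came to 1.62 for DNAJB1, 2.03 for IGFBP3 and 2.43 for BHLHE40 on the log2 scale. Leaving out each library in turn gave adjusted p of 0.000201 to 0.047 for DNAJB1, 0.000152 to 0.495 for IGFBP3 and 0.00815 to 1 for BHLHE40. PC3 minus 22Rv1 came to 1.73 for FN1, 1.64 for PRKDC, −1.11 for S100A10 and −1.18 for C12orf75. The same ranges of adjusted p were 0.00566 to 0.528 for FN1, 0.026 to 0.406 for PRKDC, 0.00066 to 0.0438 for S100A10 and 0.00174 to 0.0479 for C12orf75. DNAJB1, S100A10 and C12orf75 thus stayed called in each of these fits, and the other 4 did not.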

How the results depend on the processing

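Depth limits these results: genes under 20 CPM had a median standard error of 0.53 on the log2 scale, 2 siMED12 libraries were compared, and MED12 itself was covered by 7 to 22 counts. The 0 calls between siMED12 and siCtrl became 1 with limma, 9 with all genes that had a count, 20 with the replicate block and 62 with the block on 4 libraries, and 0 to 3 when 1 library was left out (3 without PC3 siCtrl replicate 2: AQP3, GPX2 and PLAT). Whether the replicate numbers pair the samples is not given by the labels. Deviations of same-numbered libraries correlated at 0.117 and 0.0787 in PC3, 0.177, 0.132 and 0.135 in LNCaP and 0.19 and 0.253 in 22Rv1. Each of the 7 correlated best with its own number, but for PC3 replicate 3 the best other number was close, at 0.0572. In PC3 and 22Rv1 the deviations of the 2 siMED12 libraries mirror each other. The 7 are thus not separate checks, and they give a weak hint of pairing. The unpaired fit was kept as the main one because the authors describe edgeR without a replicate term. The correlations do not settle which fit is right, and the paired fits are given beside it. For replicate 1 alone the 0 calls became 15 with all genes, 4 where each PC3 library had 10 counts or more, 2 without genes above 3 times PC3 in another line and 1 with the length trend removed (0 to 2 leaving 1 out). For replicate 3 alone they became 3 with all genes and 2 with DESeq2, the legacy test or the length trend removed (0 to 2 leaving 1 out). Between the siMED12 libraries the 3 calls became 0 with DESeq2, with PC3 libraries only and with the LNCaP share subtracted, 8 with all genes, and 1 with the minimum of 10 counts or without genes high in another line (0 to 5 leaving 1 out, 5 without LNCaP siMED12 replicate 3). PC3 minus LNCaP gave 15 with all genes, 1 with that minimum and 13 with the replicate block (1 to 5 leaving 1 out), and PC3 minus 22Rv1 gave 16 with DESeq2, 71 with all genes and 73 with the replicate block (3 to 31 leaving 1 out, 31 without 22Rv1 siMED12 replicate 1). The share of genes with both libraries outside on 1 side was 31.1% to 35.9% with 1 siCtrl library left out. Order alone also gives a larger share when fewer controls set the range. MED13L turned to −0.054 with limma, −0.0069 in thinned libraries and −0.037 with the length trend removed, and ran from −0.80 to 0.61 leaving 1 out. CCNC turned to 0.059 and 0.095 with the replicate block on all and on 4 libraries and 0.039 with the length trend removed, and ran from −0.16 to 0.045. Leaving 1 library out gave −0.63 to 0.25 for MED12, −1.67 to 0.27 for BCL6, −1.62 to 0.61 for ENSG00000286966 and −0.92 to 0.32 for NFKBIA, each positive without PC3 siCtrl replicate 1. The causes of these shifts were not tested.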
